A study of Mus musculus with 21 samples.

Results

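Lung tumours raised by the tobacco carcinogen NNK were compared with lung kept inflamed by the bacterial product LPS, to separate tumour genes that differ from those of chronic inflammation. The comparison used the 3 libraries labelled NNK and the 3 labelled LPS, of 21 libraries in 7 groups, and ran over the whole count table of 38924 gene symbols. Of these, 15770 passed the filter on low counts and were tested. All mice were female A/J, a strain prone to lung adenoma, and were studied 22 weeks after treatment. The NNK mice received 1 intraperitoneal dose of 100 mg/kg of this nicotine-derived nitrosamine and no LPS, and their RNA came from tumours cut out of the lung and pooled from 3 mice per group. The LPS mice received the vehicle of NNK and then 5 µg of LPS in 50 µL through the nose each week, starting 1 week after the dose, and their RNA came from lung that was labelled normal. Control mice received the vehicle alone, and their lung served as the background for both groups. NNK, dissection of a tumour and the lack of LPS therefore separate the compared groups together, and their parts cannot be told apart. The other 12 libraries were tumours of mice given NNK and then the same LPS course, alone or with silibinin (Sil), indole-3-carbinol (I3C) or both in the diet at 20 µmol/g. They entered the fit only through the filter on low counts, the scaling of the libraries and the estimate of spread. Levels of these 12 are given where named.

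As background, NNK is activated to DNA-damaging metabolites in the lung, and the tumours of A/J mice commonly resemble alveolar type 2 cells, the cells that make surfactant. LPS binds Toll-like receptor 4 on macrophages and epithelium. That receptor signals through NF-kB to cytokine and chemokine genes and through interferon factors to antiviral and antigen-presentation genes, which in turn draw in neutrophils, monocytes and lymphocytes.

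Each NNK library held 14.6 to 15.0 M counts, each LPS library 14.7 to 15.7 M and each Control library 13.3 to 15.6 M. A gene was called where the adjusted p of edgeR's quasi-likelihood test was under 0.05, and differences are fitted log2 fold changes, with their standard error (SE). Between NNK and LPS 7418 genes were called, which is 47.0% of those tested, with 3460 higher (21.9%) and 3958 lower (25.1%) in NNK. Among the genes that differed at least 8-fold, 53 were higher and 274 were lower in NNK. NNK and Control differed at 2064 genes (13.1%), and LPS and Control at 7890 (50.0%). The first principal component of these 9 libraries held 70.7% of the variance and separated the LPS libraries from both other groups. LPS 3 stood apart in its counts of mt-Atp8 relative to those of mt-Atp6, adjacent mitochondrial genes, with a ratio of 0.0854 against 0.0206 to 0.0236 in the other 8 libraries of these groups and 0.0782 to 0.135 in the 12 remaining tumours. Without LPS 3, 6139 genes were called. No label states that libraries within a group are from different mice, so p-values measure only how libraries vary, which may be technical.

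**Figure D1:**
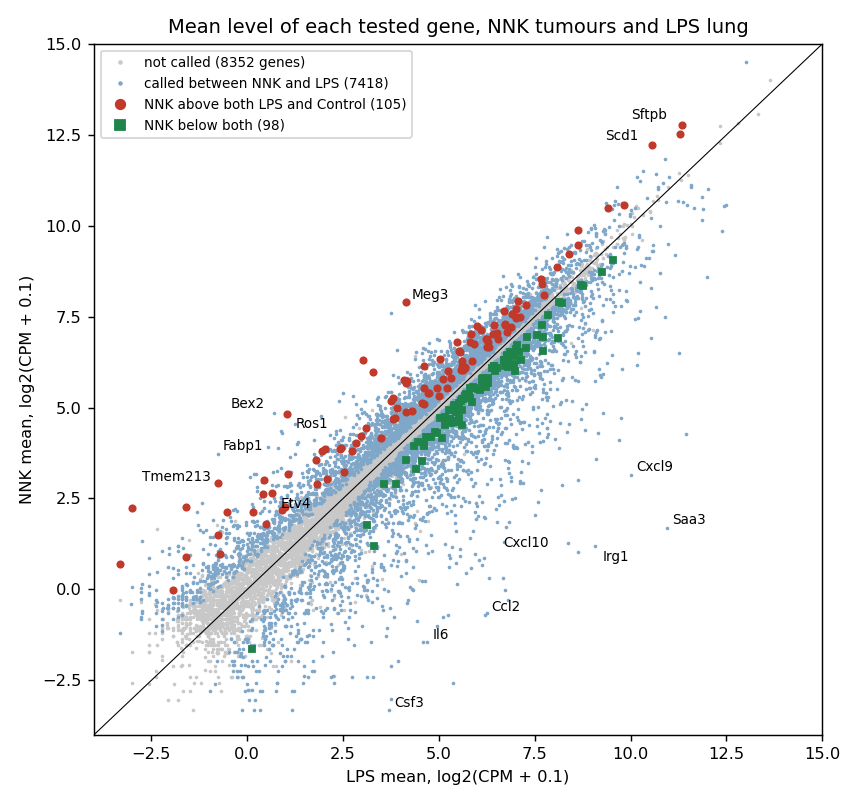
Mean level of each tested gene in the 3 LPS libraries (horizontal) and the 3 NNK libraries (vertical), in log2 of CPM (counts scaled to library size) plus 0.1, with a line of equal level. The 274 genes that were at least 8-fold lower in NNK reach far below the line, with Saa3, Irg1, Cxcl9 and Csf3 at the edge, while the 105 genes above both LPS and Control lie closer above it.

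The interferon response differed at every gene of its list. All 30 genes of the list passed the filter and all 30 were lower in NNK, against 25.1% of all genes tested, where 59.2% had no overlap between the 3 NNK and 3 LPS libraries, with a median log2 fold change of -2.96 beside -0.01 over all genes. All 30 were also higher in LPS than in Control (background 25.3%), and edgeR called 0 of them between NNK and Control, with 1 at an unadjusted p under 0.05. Isg15, a ubiquitin-like protein attached to others during the antiviral response, stood at 6.62, 10.3 and 16.4 CPM in NNK and at 199, 130 and 153 CPM in LPS. Control held 8.34, 9.77 and 12.1 CPM of Isg15, so the NNK libraries overlapped Control and none reached the LPS range. Its log2 fold change was -3.85 (SE 0.46, adjusted p = 7.37e-06). Gbp2, a guanylate-binding protein induced by interferon gamma, stood at 54.0, 93.0 and 124 CPM in NNK and at 1370, 943 and 1225 CPM in LPS, and the NNK libraries lay on both sides of the Control span of 75.3 to 107 CPM. Oas1a, a sensor of double-stranded RNA, differed by -3.01 (SE 0.25, adjusted p = 1.53e-07), and Bst2, which tethers budding virus to the cell, by -2.30 (SE 0.16, adjusted p = 2.66e-08). Irf1 and Stat2, transcription factors of the pathway, differed by -2.25 (SE 0.20) and -1.63 (SE 0.15).

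Since these genes differed together, their promoters are shown for the letters of the interferon-stimulated response element, the site that the STAT and IRF factors are known to bind. The RefSeq promoter table (GRCm38.p6) held 20 of the 30 genes. This motif, searched on both strands in the 250 bases before the start, was in 13 of these 20 genes, against 3.46% of the 27025 genes in the table and 2.98% of its 32851 promoters of that length. Matches of this motif can overlap each other. It was also in 3 of the 21 chemokine genes that the table held, Ccl19, Cxcl10 and Cxcl14. The upstream sequences of Isg15 and Ifit1, of the interferon list, and of the chemokine gene Cxcl10 are given 5′ to 3′ on the strand of the gene, without bases that lie inside the GENCODE gene, and capitals mark the matches.
Isg15 (chr4:156200819-156201068, minus strand): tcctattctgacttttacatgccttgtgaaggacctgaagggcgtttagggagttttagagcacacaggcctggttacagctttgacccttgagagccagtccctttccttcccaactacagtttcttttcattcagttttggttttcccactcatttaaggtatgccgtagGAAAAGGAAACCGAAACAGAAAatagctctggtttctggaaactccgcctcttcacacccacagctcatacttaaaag
Ifit1 (chr19:34640639-34640870, plus strand): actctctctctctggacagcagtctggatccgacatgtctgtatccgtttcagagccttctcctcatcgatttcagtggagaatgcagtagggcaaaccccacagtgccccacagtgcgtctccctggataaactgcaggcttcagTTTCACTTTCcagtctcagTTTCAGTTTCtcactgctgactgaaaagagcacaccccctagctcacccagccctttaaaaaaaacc
Cxcl10 (chr5:92348890-92349139, minus strand): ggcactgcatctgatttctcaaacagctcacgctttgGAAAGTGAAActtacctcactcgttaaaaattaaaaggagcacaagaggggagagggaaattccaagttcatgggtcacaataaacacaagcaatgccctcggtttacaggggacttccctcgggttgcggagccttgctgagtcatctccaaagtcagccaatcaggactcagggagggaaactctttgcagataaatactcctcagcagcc
Isg15 held 3 overlapping matches in 1 run, Ifit1 held 2 and Cxcl10 held 1. A match describes these letters only and was not measured as a bound site.

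Chemokines, the secreted proteins that attract leukocytes, held the lowest median of the 50 lists at -3.77. Of 31 members tested, 22 were lower in NNK and 1, Cxcl15, was higher, against 25.1% and 21.9% of all genes. An attractant of neutrophils, Cxcl2, is given first. Cxcl2 stood at 0.201, 0.342 and 1.05 CPM in NNK, at 80.8, 67.5 and 82.4 CPM in LPS and at 0.228 to 0.968 CPM in Control, a log2 fold change of -7.15 (SE 0.66, adjusted p = 5.19e-07). The NNK and Control values of Cxcl2 overlapped. Among attractants of monocytes, Ccl2 stood at 0.669, 0.342 and 0.526 CPM in NNK and at 73.8, 67.7 and 80.6 CPM in LPS. Ccl3 differed by -6.45 (SE 0.46) and Ccl4 by -7.28 (SE 0.60), and the highest NNK value of either was 1.74 CPM. Both are macrophage inflammatory proteins, and their lowest LPS value was 94.9 CPM.

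The attractants of T cells that interferon gamma induces, Cxcl9 and Cxcl10, had higher levels in LPS than Cxcl2, Ccl2, Ccl3 and Ccl4. Cxcl9 stood at 1106, 860 and 1121 CPM in LPS and at 5.75, 2.05 and 18.4 CPM in NNK, a difference of -6.87 (SE 0.93, adjusted p = 2.27e-05). Control held 0.958 to 1.16 CPM of Cxcl9, below each NNK library, but the difference between NNK and Control was not called (log2 fold change 3.01, adjusted p = 0.0785). Cxcl10 stood at 441, 246 and 310 CPM in LPS and at 1.14, 1.03 and 4.73 CPM in NNK. NNK 3 held the highest NNK value of both genes. In the tumours that had also received LPS, the 12 libraries ran from 10.8 to 101 CPM for Cxcl9 and from 2.02 to 29.7 CPM for Cxcl10, below each library of LPS without NNK. Cxcl15, a chemokine of lung epithelium, went the other way, with 4092, 2943 and 4019 CPM in NNK and 1785 to 2047 CPM in LPS (log2 fold change 0.94, SE 0.24, adjusted p = 0.00420).

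Cxcl2 is shown as a chemokine promoter with the letters of the kappa B site, where NF-kB is known to bind. This motif, on both strands, was in 5 of the 21 chemokine genes that the table held, in 4 of 18 cytokine genes against 1.65% of all genes and 1.41% of all promoters in the table. Capitals mark 2 matches.
Cxcl2 (chr5:90903649-90903870, plus strand): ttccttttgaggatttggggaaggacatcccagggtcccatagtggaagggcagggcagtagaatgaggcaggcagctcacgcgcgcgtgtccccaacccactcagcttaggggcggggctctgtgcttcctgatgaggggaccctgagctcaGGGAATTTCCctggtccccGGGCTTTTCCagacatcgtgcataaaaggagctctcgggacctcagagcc
The same table held no match of this motif for Ccl4 or Ccl2 in that window, which says only that these letters are not there.

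Cytokines followed the same direction, with 17 of 22 tested lower in NNK (background 25.1%), 1 higher (background 21.9%) and a median of -2.74. Il1b, the main interleukin-1 of activated macrophages, stood at 18.1, 29.2 and 15.4 CPM in NNK and at 488, 408 and 459 CPM in LPS, a difference of -4.44 (SE 0.41, adjusted p = 6.38e-07). Il1b was also higher in NNK than in Control, at 5.87 to 9.55 CPM (log2 fold change 1.5, adjusted p = 0.0273). Its antagonist Il1rn differed by -4.86 (SE 0.26, adjusted p = 2.34e-09). Il6, which drives the acute phase response, stood at 23.7, 19.0 and 34.6 CPM in LPS, and no NNK library exceeded 0.394 CPM. Csf3, the growth factor of neutrophils, had 0 counts in NNK and in Control and 564 counts in LPS, so with a group floor of 3 counts it was at least 194-fold higher in LPS. Il17a, the cytokine of T helper 17 cells, had 2 counts in NNK and 95 in LPS, a ratio of 49.0 with a 95% counting interval of 13.2 to 410. Such bounds and intervals include no error beyond that of counting. Il18 was the member higher in NNK, at 16.4 to 19.3 CPM against 7.07 to 13.8 CPM in LPS, and its call was lost without LPS 3 (log2 fold change 0.59, adjusted p = 0.0697).

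The sensors and effectors of innate immunity showed the same contrast. In the TLR and NF-kB pathway 20 of 26 tested genes were lower in NNK (background 25.1%). The flagellin receptor Tlr5 was the 1 that was higher (background 21.9%). Tlr2, a receptor for bacterial lipoproteins, differed by -2.39 (SE 0.18, adjusted p = 6.31e-08), and the adaptor Myd88 by -1.01 (SE 0.10). Of 13 genes for itaconate, nitric oxide and the oxidant burst, 11 were lower in NNK (background 25.1%). Irg1, which makes the antibacterial metabolite itaconate, stood at 1.94, 2.26 and 2.30 CPM in NNK and at 690, 451 and 478 CPM in LPS, a difference of -7.96 (SE 0.79, adjusted p = 1.21e-06). Nos2, the inducible nitric oxide synthase, stood at 9.16, 13.0 and 13.7 CPM in NNK, at 12.7 to 19.6 CPM in Control and at 609, 405 and 620 CPM in LPS. The 3 groups were thus in the order LPS, then Control and NNK with overlapping values. The manganese superoxide dismutase Sod2 differed by -2.18 (SE 0.10, adjusted p = 4.89e-10).

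Acute phase and mucosal defence genes were lower in NNK for 12 of 21 tested (background 25.1%) and higher for 2 (background 21.9%). Saa3, an acute phase apolipoprotein made by macrophages and epithelium, stood at 1526, 1771 and 2628 CPM in LPS and at 3.88, 2.25 and 3.29 CPM in NNK, against 1.14 to 2.84 CPM in Control. Its log2 fold change of -9.29 (SE 1.03, adjusted p = 3.52e-06) was among the lowest, and in the 12 tumours that also received LPS it ran from 2.38 to 55.7 CPM. Orm1 and Orm2, the orosomucoids, differed by -5.43 (SE 0.46) and -6.22 (SE 0.42). Lcn2, a protein that withholds iron from bacteria, had an intermediate level in NNK. It stood at 462, 205 and 500 CPM there, at 70.4 to 104 CPM in Control and at 3506 to 5126 CPM in LPS, and was called in both comparisons (adjusted p = 8.35e-06 against LPS and 0.00628 against Control). Of 19 complement genes 14 were lower in NNK and 1, the component Hc, was higher, against the same background. Cfb, factor B of the alternative pathway, stood at 83.5, 85.0 and 101 CPM in NNK and at 2214 to 2800 CPM in LPS.

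**Figure D2:**
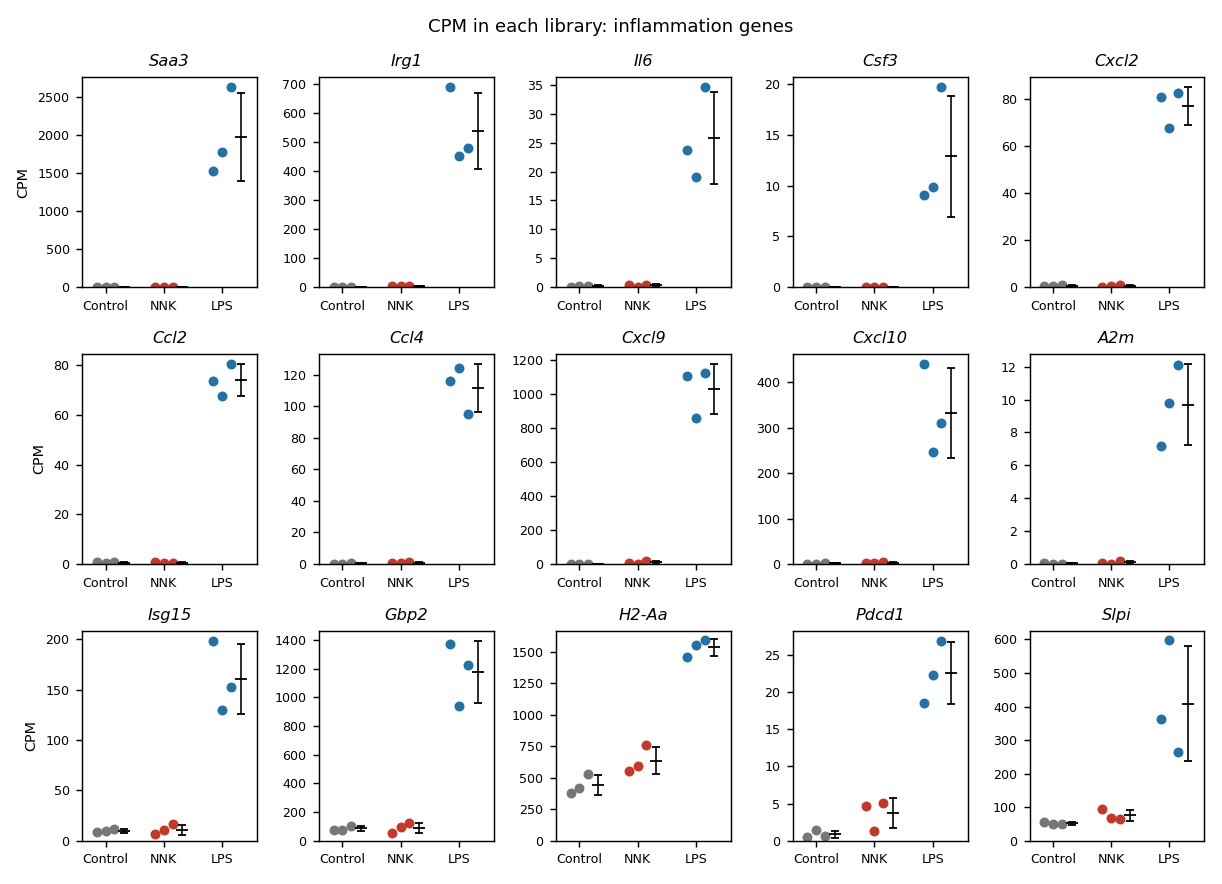
CPM of 15 inflammation genes in each Control, NNK and LPS library (points), with the mean and SD of 3 libraries (bars), each on its own axis from 0. The NNK points lie at the level of Control for Saa3, Cxcl2 and Isg15, and between Control and LPS for H2-Aa.

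Antigen presentation genes were lower in NNK than in LPS, and part of them were above the Control level. All 18 genes of MHC class I and antigen processing and 11 of 12 of MHC class II were lower in NNK than in LPS (background 25.1%). Against Control, 5 of the 18 and 6 of the 12 were called higher in NNK (background 6.46%), and the rest were not called. H2-K1, a class I heavy chain, stood at 546 to 764 CPM in Control, at 926, 1090 and 1389 CPM in NNK and at 3208, 3828 and 4098 CPM in LPS, with no overlap between the groups. H2-Aa, a class II chain, stood at 551, 595 and 757 CPM in NNK and at 1458, 1554 and 1589 CPM in LPS (log2 fold change -1.27, SE 0.20, adjusted p = 5.59e-05). Since genes of the H2 family share sequence, the authors' counting could move reads between them. Of 14 immune checkpoint and regulatory genes 12 were lower in NNK (background 25.1%). Cd274, the ligand PD-L1, stood at 39.6, 57.3 and 75.3 CPM in NNK and at 736, 444 and 610 CPM in LPS, a difference of -3.38 (SE 0.32, adjusted p = 6.84e-07). Ido1, which degrades tryptophan, differed by -4.80 (SE 0.58), and Pdcd1, the receptor PD-1, by -2.60 (SE 0.73, adjusted p = 0.00793).

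Leukocyte markers were lower in NNK for most cell types, where 25.1% of all genes were lower. In bulk RNA fewer cells of a type and less RNA per cell cannot be told apart, here and in the marker lists that follow. Of 18 markers of monocytes and interstitial macrophages 17 were lower in NNK, with a summed level of 951 to 1137 CPM against 3986 to 4257 CPM in LPS and 876 to 943 CPM in Control. Ly6c2, a surface antigen of inflammatory monocytes, differed by -2.19 (SE 0.18, adjusted p = 1.05e-07). T cell markers were lower for 16 of 17, with sums of 87.6 to 152 CPM in NNK, 293 to 371 CPM in LPS and 66.7 to 99.0 CPM in Control, and the count was 10 without NNK 1, 8 without NNK 2 and 9 without LPS 3. Markers of NK and cytotoxic cells were lower for 8 of 12, and Ifng, their product interferon gamma, had a highest NNK value of 0.460 CPM against 4.78 to 10.1 CPM in LPS. B and plasma cell markers were lower for 9 of 18. Igj, the joining chain of secreted antibody, stood at 169, 167 and 320 CPM in NNK, 1137 to 2047 CPM in LPS and 27.0 to 54.0 CPM in Control.

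Neutrophil markers varied among the NNK libraries, with sums of 458 to 1011 CPM, against 1758 to 2124 CPM in LPS and 272 to 351 CPM in Control. Of 19 tested, 8 were lower in NNK than in LPS (background 25.1%), and 5 were without NNK 3, without LPS 1 or without LPS 3. Without NNK 3, 1 member was called higher in NNK than in LPS. Against Control, 10 of the 19 were higher in NNK (background 6.46%). EdgeR called 0 lower than Control, also at an unadjusted p under 0.05. S100a9, a calcium-binding protein abundant in neutrophils, stood at 199, 254 and 22.3 CPM in NNK, at 417, 429 and 501 CPM in LPS and at 11.7 to 37.8 CPM in Control. NNK 3 lay within Control, and NNK 1 and 2 lay between Control and LPS, so the difference from LPS had a wide error (log2 fold change -1.5, SE 0.86, adjusted p = 0.164). Mmp8 and Cxcr2 had the same order of NNK libraries, with 5.72 and 6.11 CPM in NNK 3. Alveolar macrophage markers went the other way, with 10 of 17 higher in NNK (background 21.9%) and 1 lower (background 25.1%). Siglec5, as this table names the sialic acid lectin of the cells, stood at 44.8, 35.2 and 39.4 CPM in NNK, 27.4 to 34.5 CPM in Control and 5.95, 10.4 and 3.57 CPM in LPS. The mannose receptor Mrc1 differed by 1.49 (SE 0.24, adjusted p = 0.000116).

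Genes higher in NNK than in both LPS and Control were then taken, with the larger of both p-values adjusted over all genes. This gave 105 genes (0.666% of those tested), of which 32 were at least 2-fold from both. The NNK libraries overlapped neither group at any of the 105, where 59.2% of all tested genes had no overlap between NNK and LPS. Genes chosen by these p-values tend not to overlap, so this is no separate support for the 105. The size given for such a gene is the smaller of its 2 log2 fold changes, which share the NNK libraries, and its median over the 105 was 0.72. The count was fragile. Leaving out a single library gave 0 without NNK 1, without Control 1 or without Control 2, 1 without NNK 3, 24 without LPS 1, 26 without LPS 2, 27 without LPS 3, 51 without NNK 2 and 68 without Control 3, while DESeq2 gave 251 and a fit to the 3 groups alone gave 256. Where edgeR left 0 genes, 633, 824 and 731 genes were above both at an unadjusted p under 0.05.

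Among the genes above both with at least 5 CPM, Meg3 and Rian, of an imprinted cluster on chromosome 12, had the largest differences. Meg3 is a long noncoding RNA expressed from the maternal copy of the Dlk1-Dio3 region, and Rian is a second noncoding RNA of the same region. Meg3 (chr12:109541001-109571726 in GENCODE M21, GRCm38) stood at 256, 121 and 340 CPM in NNK, at 45.2, 3.41 and 4.17 CPM in LPS and at 10.0, 11.9 and 14.4 CPM in Control. Each NNK library exceeded each LPS and Control library, and LPS 1 was above the other LPS libraries. The difference was 3.77 against LPS (SE 0.84, adjusted p = 0.00175) and 4.30 against Control (adjusted p = 0.00777). Rian stood at 80.2, 43.1 and 113 CPM in NNK, at 18.5, 2.39 and 3.23 CPM in LPS and at 5.42 to 7.28 CPM in Control, with LPS 1 again the highest of its group. Without LPS 1 the difference of Meg3 from LPS was 5.98. Dlk1, a paternally expressed gene of the region, was high in 1 NNK and 1 LPS library, at 6.89, 0.410 and 1.05 CPM in NNK and 23.6, 0.205 and 0 CPM in LPS, and its direction depended on LPS 1 (log2 fold change -1.5, or 4.69 without it). Against 21.9% higher and 25.1% lower of all genes, 10 of 22 imprinted genes tested were higher and 2 lower in NNK than in LPS. Igf2, a fetal growth factor, was among them but stood at the Control level, at 7.36 to 7.69 CPM in NNK, 7.21 to 8.13 CPM in Control and 1.94 to 2.96 CPM in LPS.

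Of the ERK feedback and ETS genes 2 of 25 were above both, and of the EGF receptor family and its ligands 1 of 14, against 0.666% of all genes. They are given after Ros1, which is in neither list. Ros1, a receptor tyrosine kinase (chr10:52045721-52195244), stood at 42.4, 20.2 and 22.5 CPM in NNK, at 2.94, 1.84 and 1.08 CPM in LPS and at 4.33 to 6.00 CPM in Control. LPS was below Control and NNK above it, with differences of 3.86 (SE 0.44, adjusted p = 4.03e-06) and 2.50 (adjusted p = 0.00314) from NNK. In the 12 tumours that also received LPS, Ros1 ran from 9.62 to 41.9 CPM. Etv4, an ETS transcription factor induced by the ERK kinases, stood at 7.36, 2.80 and 8.28 CPM in NNK, 1.23 to 1.58 CPM in LPS and 0.379 to 0.511 CPM in Control, and so was raised in LPS as well (log2 fold change 1.67, adjusted p = 0.00604) but by less. Spred2, an inhibitor of the RAS-ERK pathway, stood at 44.0, 42.9 and 52.0 CPM in NNK against 22.4 to 26.4 CPM in LPS and 26.2 to 33.4 CPM in Control. Erbb2, a receptor of the EGF receptor family, was above both by 0.35, a small difference.

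The ERK feedback list as a whole was divided. Of 25 tested, 9 were higher and 5 lower in NNK than in LPS, against 21.9% and 25.1% of all genes. The median was 0.02, and leaving out single NNK or LPS libraries gave 5 to 9 higher and 1 to 6 lower. The count of members lower was 1 without NNK 2 and 3 without NNK 1, LPS 1 or LPS 3. Spry1, a feedback inhibitor of receptor kinases, differed by 1.38 (SE 0.23), with LPS below Control. Among ligands, Hbegf was higher in LPS, at 58.3 to 78.5 CPM against 32.1, 36.6 and 41.3 CPM in NNK, while Tgfa was higher in NNK, at 36.8, 37.0 and 26.4 CPM against 22.4 to 23.9 CPM. Of 22 p53 targets, 5 were higher and 6 lower in NNK than in LPS, near the shares of all genes tested (21.9% and 25.1%). Zmat3, an RNA-binding target, was above both. It stood at 50.3, 35.0 and 41.2 CPM in NNK, 26.1 to 27.9 CPM in LPS and 22.5 to 24.7 CPM in Control.

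Surfactant and lipid synthesis genes were also among those above both. Of 23 alveolar type 2 markers 12 were higher and 4 lower in NNK than in LPS, against 21.9% and 25.1% of all genes. Above both were 6 of them (background 0.666%), namely Sftpb, Slc34a2, Abca3, Napsa, Lpcat1 and Scd1. The summed level of the 23 was 65030 to 78590 CPM in NNK, 47710 to 54820 CPM in LPS and 44900 to 52720 CPM in Control. Sftpb, which encodes surfactant protein B, stood at 7485, 6441 and 7199 CPM in NNK, at 2889, 2566 and 2325 CPM in LPS and at 4401, 3772 and 4260 CPM in Control. The groups did not overlap, with Control between them, and the difference from LPS was 1.44 (SE 0.13, adjusted p = 2.24e-07). Sftpc, surfactant protein C, differed from LPS by 1.48 (SE 0.19) and from Control by 0.33 (adjusted p = 0.239). Abca3, the lipid pump that loads surfactant into lamellar bodies, stood at 1608, 1456 and 1538 CPM in NNK, 889 to 940 CPM in LPS and 990 to 1191 CPM in Control. Not every marker moved so. The 4 lower in NNK than in LPS were Sftpd, Chi3l1, Cd74 and Lcn2. Sftpd, surfactant protein D, differed from LPS by -0.64 to -0.40 over 16 alternative settings and kept its call in 11 of them. Sftpa1 and Lamp3 were not called between NNK and LPS, at 0.43 (SE 0.18) and 0.19 (SE 0.16).

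Of 24 fatty acid and cholesterol synthesis genes 13 were higher and 1 lower in NNK than in LPS, and 4 were above both. The shares of all genes were 21.9%, 25.1% and 0.666%. Scd1 and Lpcat1 are also in the list of type 2 markers, so the 2 lists are not separate results. The summed level of the 24 genes was 10380 to 11570 CPM in NNK, 4510 to 5766 CPM in LPS and 6220 to 6524 CPM in Control. A large part of this sum was Scd1. Scd1, which puts a double bond into fatty acids (chr19:44394455-44407879), stood at 4705, 4350 and 5248 CPM in NNK, at 1904, 1722 and 892.5 CPM in LPS and at 1630 to 1880 CPM in Control. It differed by 1.66 from LPS (SE 0.23, adjusted p = 2.42e-05) and by 1.46 from Control (adjusted p = 0.00298). Fasn, the fatty acid synthase, stood at 1597, 1365 and 1335 CPM in NNK, 648 to 713 CPM in LPS and 549 to 892 CPM in Control. Acly, which supplies its acetyl-CoA, was above both by 0.41, and Lpcat1, which makes the dipalmitoyl lipid of surfactant, by 0.70. Srebf1, the transcription factor of these genes, was higher than LPS by 0.54 (adjusted p = 0.00189), and its test against both gave an adjusted p of 0.0558. Abca3 is shown because its promoter holds the letters of a sterol regulatory element, to which the product of Srebf1 is known to bind. TCACNCCAC, on both strands, was in 2 of 16 lipid genes of the table, Hmgcs1 and Pcyt1a, in 1 of 15 type 2 markers against 1.22% of all genes and 1.05% of all promoters, and capitals mark the match.
Abca3 (chr17:24351773-24351949, plus strand): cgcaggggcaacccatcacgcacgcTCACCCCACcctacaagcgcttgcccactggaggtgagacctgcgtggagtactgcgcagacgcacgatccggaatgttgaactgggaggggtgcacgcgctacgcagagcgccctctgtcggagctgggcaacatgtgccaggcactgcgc

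**Figure D3:**
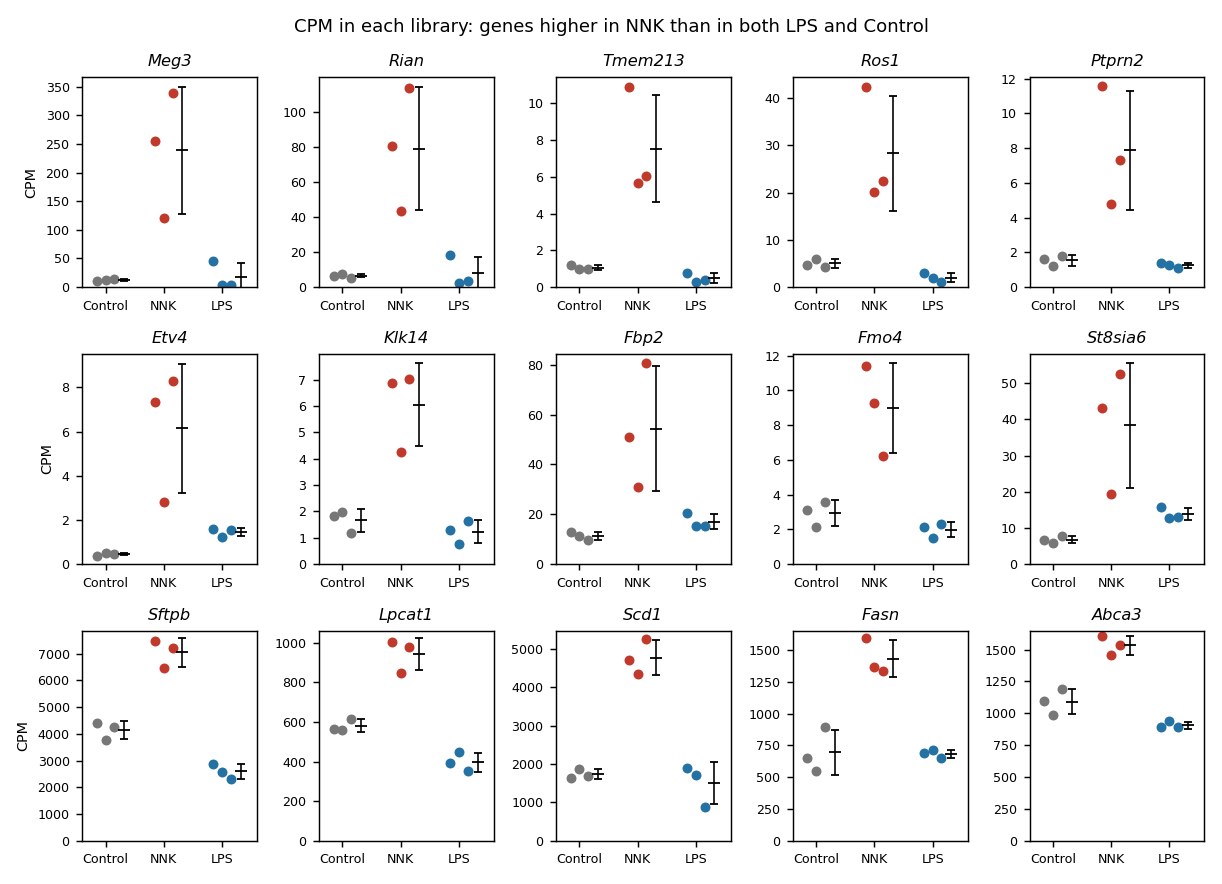
CPM in each Control, NNK and LPS library (points) of 15 genes higher in NNK than in both other groups, with the mean and SD of 3 libraries (bars), each on its own axis from 0. NNK does not overlap the other groups in any panel, while its libraries spread widely for Meg3 (121 to 340 CPM) and closely for Sftpb (6441 to 7485 CPM).

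The remaining large differences from both groups belonged to varied genes. Tmem213, a small membrane protein, stood at 10.9, 5.67 and 6.05 CPM in NNK, 0.273 to 0.788 CPM in LPS and 0.958 to 1.21 CPM in Control, a difference of 3.94 from LPS (SE 0.60, adjusted p = 5.72e-05). Ptprn2, a phosphatase-like protein of secretory granules, stood at 11.6, 4.78 and 7.30 CPM in NNK and at no more than 1.81 CPM in LPS and Control. Klk14, a secreted serine protease, stood at 6.89, 4.24 and 7.03 CPM in NNK against at most 1.98 CPM in LPS and Control. In the 12 tumours that also received LPS, Ptprn2 ran from 2.99 to 12.3 CPM and Klk14 from 1.73 to 8.59 CPM. The metabolic enzymes Fbp2, of gluconeogenesis, and Fmo4, a flavin monooxygenase, were above both by 1.68 and 1.62. St8sia6, a sialyltransferase, was above both by 1.47. Spag11b, a beta-defensin-like gene, had 69 counts in NNK and 0 in both LPS and Control, at least 22.3-fold higher than LPS. It was named as a mucosal defence gene, since its level is under the 5 CPM asked of genes named for size.

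Several of the genes with the largest excess over LPS were not called against Control. Of the 12 with the highest log2 fold change, Fabp1, Bex2, Cyp4a12b, Gria1, Greb1, Thrsp, Scn3a and Coro6 were not called against Control, and LPS was below Control for each. Bex2, at 31.4, 23.03 and 31.7 CPM in NNK and 9.94 to 17.0 CPM in Control, and Greb1 still had each NNK library above each Control library. Fabp1, a fatty acid binding protein, stood at 13.2, 16.2 and 9.86 CPM in NNK, at 21.7, 14.4 and 13.0 CPM in Control and at 0.502, 0.614 and 0.337 CPM in LPS. It had the highest log2 fold change of the 12, 4.74 (SE 0.45, adjusted p = 5.58e-07), and NNK and Control overlapped. Gria1, a glutamate receptor subunit, and Scn3a, a sodium channel, had their highest levels in Control, at 26.6 to 31.0 CPM and 38.9 to 40.2 CPM. Greb1, a target of the oestrogen receptor, stood at 15.5, 13.2 and 16.4 CPM in NNK, 5.01 to 7.10 CPM in Control and 0.808 to 2.01 CPM in LPS, and its difference from Control gave an adjusted p of 0.0568.

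The same held for whole lists of lung structure, where Control was as high as NNK or higher. Across all genes, 21.9% were higher and 25.1% lower in NNK than in LPS, the background for the counts against LPS in this paragraph. Endothelial markers were higher in NNK than in LPS for 16 of 22. EdgeR called 0 of them lower, and the count was also 0 at an unadjusted p under 0.05. Their sums were 5569 to 6661 CPM in NNK, 3275 to 3784 CPM in LPS and 7505 to 7759 CPM in Control. Sox18, a transcription factor of vessels, stood at 72.0, 83.0 and 83.3 CPM in NNK, 70.2 to 87.4 CPM in Control and 25.7 to 29.6 CPM in LPS. Alveolar type 1 markers were higher for 12 of 14 and lower for 1, and 7 were higher without NNK 2. Pdpn was the exception among type 1 markers, at 142, 156 and 162 CPM in NNK and 315 to 365 CPM in LPS. Club cell markers were higher for 7 of 13, and their sums were 19380 to 27550 CPM in NNK, 15890 to 19690 CPM in LPS and 38510 to 42350 CPM in Control. Against Control, 9 club cell markers were lower in NNK (background 6.63%) and 9 in LPS (background 24.7%). Of 20 fibroblast markers 11 were higher and 4 lower in NNK, and the collagen Col3a1 was lower, at 336, 370 and 347 CPM against 1017 to 1425 CPM in LPS.

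Enzymes that metabolise foreign compounds were higher in NNK than in LPS for 17 of 25 and lower for 1, with a median of 1.13. Across all genes, 21.9% were higher and 25.1% lower, the background for the counts against LPS in this paragraph. Ephx1, an epoxide hydrolase, stood at 172, 202 and 195 CPM in NNK, 181 to 193 CPM in Control and 77.4 to 92.0 CPM in LPS (log2 fold change 1.16, SE 0.08, adjusted p = 3.90e-08). NNK and Control overlapped, and LPS lay below both. Cyp2f2, a cytochrome of club cells, had 1943 to 2988 CPM in NNK, 1059 to 1242 CPM in LPS and 3929 to 4225 CPM in Control. In the WNT pathway 16 of 28 were higher and 3 lower in NNK than in LPS, while 1 of 28 was higher than in Control (background 6.46%). The co-receptor Lrp6 stood at 156, 160 and 141 CPM in NNK, 136 to 159 CPM in Control and 86.9 to 91.1 CPM in LPS, and the secreted inhibitor Sfrp1 was lower, by -2.16 (SE 0.29). Of 27 lung lineage transcription factors 14 were higher and 2 lower, with Nkx2-1, the lung master regulator, at 312, 264 and 280 CPM in NNK, 175 to 200 CPM in LPS and 220 to 256 CPM in Control. In the list of 10 heart muscle genes Myh6, a cardiac myosin, stood at 269 to 302 CPM in Control, 71.9 to 143 CPM in NNK and 45.1 to 63.0 CPM in LPS. The list's summed level was 572 to 602 CPM in Control, 124 to 274 CPM in NNK and 107 to 153 CPM in LPS, and its part in the results was not tested.

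Genes below both LPS and Control numbered 98 (0.621%), and their differences were small. Only 3 were at least 2-fold from both, and the median was -0.36. Chad, the matrix protein chondroadherin, stood at 1.81, 2.39 and 2.37 CPM in NNK, 7.60 to 11.9 CPM in LPS and 4.66 to 8.27 CPM in Control, which was below both by -1.51. Rarres2, the adipokine chemerin, stood at 58.8, 73.6 and 61.4 CPM in NNK, 109 to 153 CPM in LPS and 105 to 132 CPM in Control. Prkcdbp, a caveolar protein, and Crip1, a LIM protein, were below both by -0.65 and -0.57. The others named included the Mediator subunit Med21, the splicing protein Lsm3, the membrane insertion subunit Emc2 and the glycosyltransferase B3gnt9. Med21 stood at 24.6, 23.9 and 23.6 CPM in NNK, 36.0 to 39.5 CPM in LPS and 33.0 to 37.8 CPM in Control. The count was 52 with other size factors (relative log expression) and 24 with a correction for transcript length. Leaving out single libraries gave 0 without NNK 1, NNK 3, Control 1 or Control 2, 3 without LPS 2, 4 without LPS 1, 8 without LPS 3, 11 without NNK 2 and 49 without Control 3. Where edgeR left 0, 682, 770, 629 and 568 genes were below both at an unadjusted p under 0.05.

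The share of cell cycle genes that were lower in NNK was near that of all genes, while the share called higher was below it. Of 30 cell cycle and mitosis genes edgeR called 0 higher in NNK than in LPS (background 21.9%), with 0 at an unadjusted p under 0.05 too. In NNK 9 were lower, against 25.1% of all genes, and 2 of them, Mcm5 and Pcna, were below both (background 0.621%). That call below both was kept in 1 of 16 alternative settings for Mcm5 and in 3 of 16 for Pcna. Pcna, the clamp of DNA replication, stood at 79.5, 77.4 and 74.1 CPM in NNK, 102 to 115 CPM in LPS and 93.3 to 101 CPM in Control. The mitotic kinase genes Cdk1 and Plk1 were not called, at -0.58 (SE 0.29) and 0.33 (SE 0.24). Without LPS 2, 2 members were called higher in NNK. Glycolysis and hypoxia genes were lower in NNK for 14 of 21 (background 25.1%) and higher for 2 (background 21.9%). Pgk1, a glycolytic kinase, stood at 131, 122 and 128 CPM in NNK, 130 to 138 CPM in Control and 277 to 321 CPM in LPS, a difference of -1.25 (SE 0.11, adjusted p = 1.68e-07). Hk2, the inducible hexokinase, was an exception. It stood at 83.3, 53.9 and 49.4 CPM in NNK, 84.8 to 109 CPM in LPS and 21.2 to 26.9 CPM in Control, and was not called between NNK and LPS (log2 fold change -0.61, SE 0.32).

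Part of the epithelial injury and matrix genes were lower in NNK than in LPS, against 25.1% of all genes. Of 17 keratin and injury genes 9 were lower in NNK and 8 were not called. EdgeR called 0 of them higher, with 1 at an unadjusted p under 0.05. Of 11 mucous and goblet cell genes 6 were lower. Krt18, a keratin of simple epithelium, stood at 116, 112 and 120 CPM in NNK, 110 to 125 CPM in Control and 242 to 273 CPM in LPS. Cldn4, a claudin of injured alveolar epithelium, differed by -2.21 (SE 0.34, adjusted p = 6.32e-05). Of 24 matrix and protease genes 10 were lower and 2 higher in NNK, and 12 were not called. Against Control, 5 of the 24 were higher in NNK (background 6.46%) and 1 was lower (background 6.63%). Timp1, an inhibitor of metalloproteinases, stood at 6.62, 4.58 and 4.34 CPM in NNK against 160 to 212 CPM in LPS. Of 18 NRF2 targets 7 were lower and 6 higher, against 25.1% and 21.9% of all genes. Hmox1, which degrades haem, was lower in NNK, at 60.5 to 70.3 CPM against 207 to 255 CPM in LPS, and Gstm1, a glutathione transferase, was higher, at 224 to 305 CPM against 98.8 to 127 CPM.

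Some genes stood above Control in both NNK and LPS and were not called between them. Both differences share the Control libraries and are given side by side. They were picked with their values in view. Ereg, a ligand of the EGF receptor, stood at 12.0, 1.71 and 7.43 CPM in NNK and at 6.24, 5.94 and 11.6 CPM in LPS, with 0.255 to 0.379 CPM in Control. The NNK and LPS values overlapped, and the difference was -0.17 (SE 0.58, adjusted p = 0.837). Dusp6, a phosphatase that acts on ERK, stood at 141, 124 and 142 CPM in NNK and at 147, 115 and 143 CPM in LPS, with 78.8 to 99.1 CPM in Control. Arg2, a mitochondrial arginase, stood at 21.9 to 30.5 CPM in NNK, 29.6 to 33.9 CPM in LPS and 4.02 to 6.13 CPM in Control. Lbp, which passes LPS to its receptor, stood at 99.3 to 131 CPM in NNK, 89.6 to 109 CPM in LPS and 53.5 to 62.4 CPM in Control. An uncalled difference does not show that the levels were equal. The standard errors between NNK and LPS were 0.15 for Dusp6, 0.33 for Arg2 and 0.16 for Lbp.

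**Figure D4:**
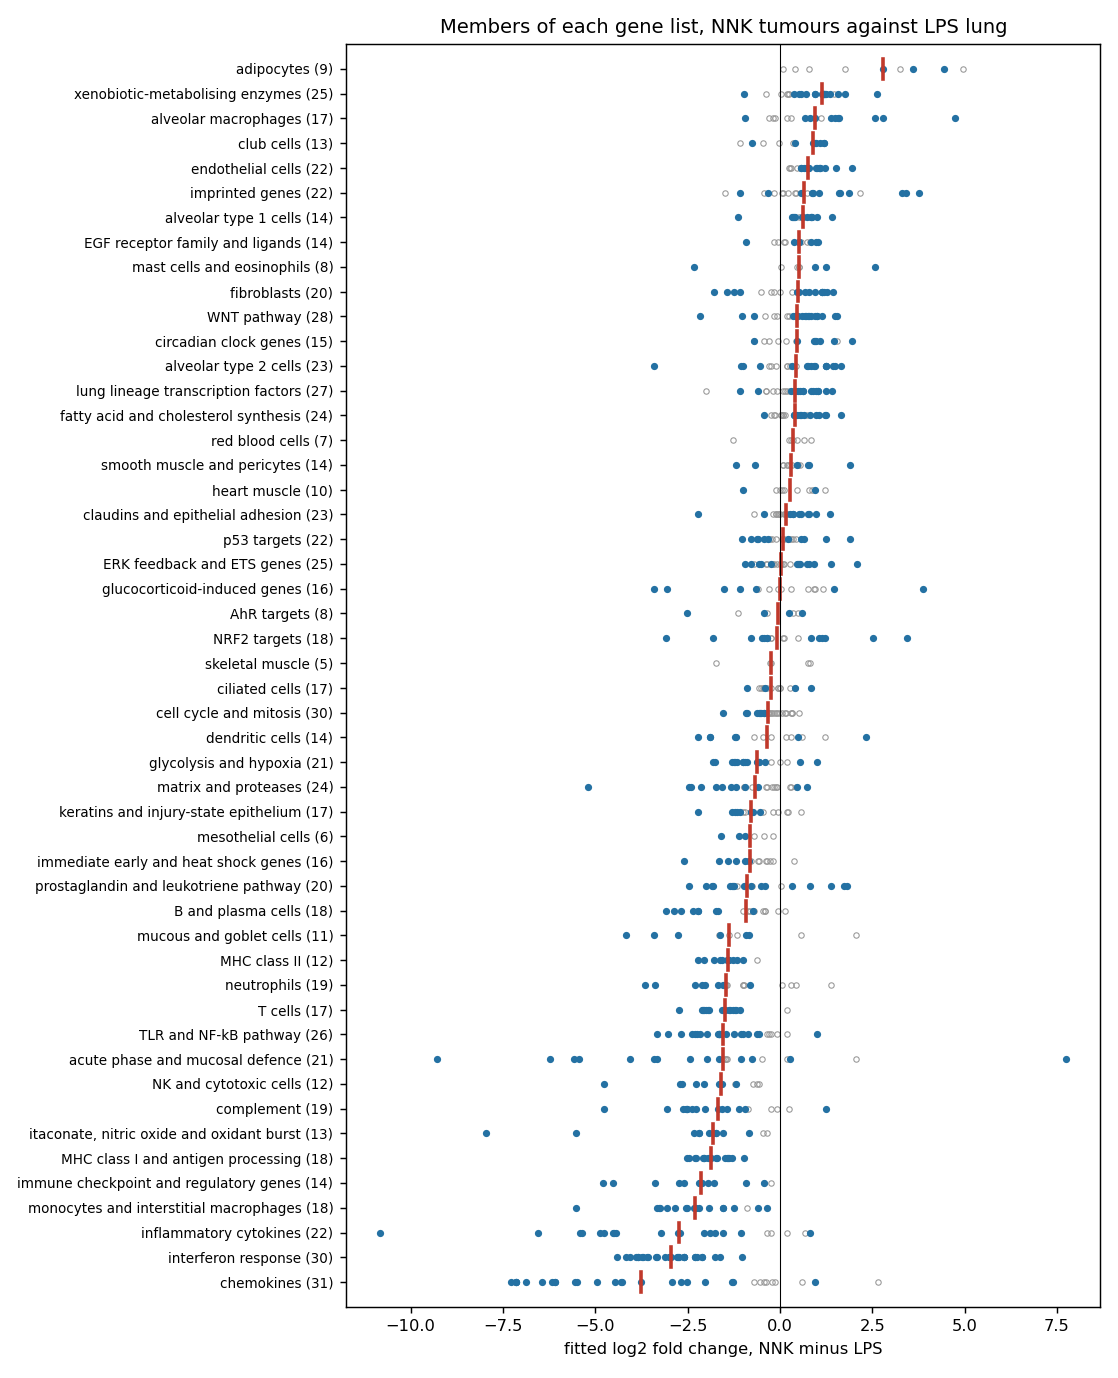
Fitted log2 fold change of each tested member, NNK minus LPS, for the 50 lists with the number tested in brackets. Filled points are called genes, open points are not, and bars are list medians. The medians run from -3.77 for chemokines to 2.79 for adipocyte genes, of which 3 of 9 were called.

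The difference between NNK and LPS moved with transcript length. With the tested genes in 5 bins of near equal size by the longest transcript of each gene, from short to long, the median log2 fold change was -0.27, -0.13, -0.01, 0.04 and 0.23. The libraries' own median difference between the longest and the shortest bin, against the mean of Control, was 0.04 to 0.15 in NNK and -0.44 to -0.28 in LPS. The genes above both had a median longest transcript of 4994 bases and those below both of 2244 bases, against 3242 bases over the tested genes. A correction for transcript length, added after these values were seen, left 6877 genes called between NNK and LPS, 50 above both and 24 below both. All 30 interferon genes and 18 class I genes were lower in NNK with this correction too, and 23 chemokines were. The number of EGF receptor family genes higher in NNK was 6 before and 3 after it, and of neutrophil markers lower in NNK 8 before and 5 after it. The part of RNA quality in this pattern was not tested.

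**Figure D5:**
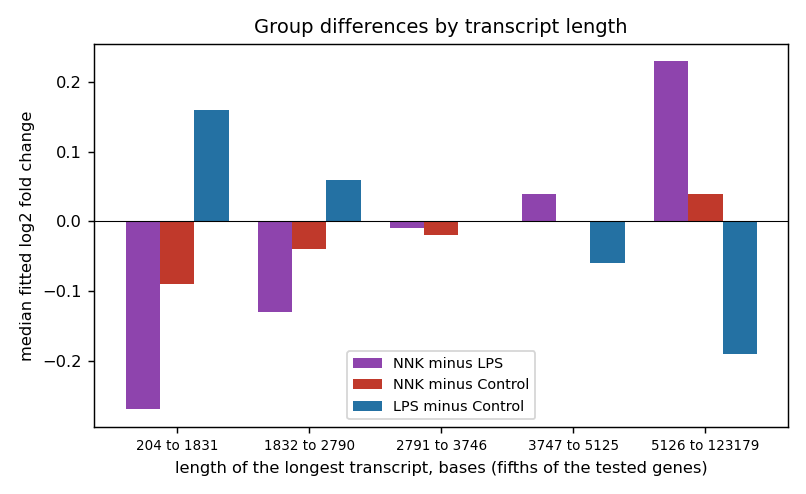
Median fitted log2 fold change in 5 bins of the tested genes by the length of the longest transcript, for 3 comparisons (bars, axis in log2 units). NNK minus LPS goes from -0.27 in the shortest to 0.23 in the longest bin, and LPS minus Control from 0.16 to -0.19.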

How the data were processed

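RNA was sequenced with the TruSeq RNA kit, version 2, per the labels' protocols. The authors deposited whole-number counts per gene symbol, with mm10 as the genome build per the submitters' processing notes. For the aligner, counter and strandedness, nothing is given in the sources used here. The counts were fitted in R 4.3.3 with edgeR 4.0.16 over all 7 groups of 3 libraries, after filterByExpr (minimum count 10) and TMM scaling, with 14 residual degrees of freedom. P-values of the quasi-likelihood test were adjusted by Benjamini-Hochberg over 15770 genes. CPM are counts per TMM-scaled library size, as edgeR's cpm function gives them. Lengths and coordinates came from GENCODE M21 for 37205 symbols.

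Named were the 12 genes highest and the 12 lowest in NNK against LPS, and the 10 farthest above and the 10 farthest below both other groups, among called genes without overlap and with at least 5 CPM in the higher group. For each list, up to 4 members of smallest adjusted p and 2 above or below both were added, and single genes that stand for a role. Uncharacterised models, receptor segments and pseudogenes were left out. The genes and lists were chosen with earlier results of these data known. DESeq2 1.42.0 and the other alternatives are given at the end. Scripts were tested on simulated data. Some genes are not reported here.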

Additional observations from a re-analysis of the deposited data

How the results depend on the processing

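The count of genes called between NNK and LPS was 7418. It ranged from 6139 to 7495 when 1 library was left out (3 Control libraries included), with 2835 to 3554 higher and 3284 to 3941 lower. It was 7433 with size factors by relative log expression, 7027 without a filter on low counts, 7442 in a fit to the 6 libraries alone, 7532 with DESeq2, 6877 with a correction for transcript length and 5573 with LPS 3 and NNK 3 both left out. The last 2 were chosen after seeing the data. Of the 862 named genes and list members, no called difference reversed under any of these settings. Uncalled genes could change sign, among them Dlk1, Ereg (-0.78 to 0.31) and Dusp6 (-0.08 to 0.08).

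The 203 genes called above or below both LPS and Control, 105 and 98, depended on the setting. Above both there were 60 without the filter, 256 in the fit to 3 groups, 251 with DESeq2, 50 with the length correction and 0 without both LPS 3 and NNK 3. Below both there were 52 with relative log expression, 10 without the filter, 174 with DESeq2, 24 with the length correction and 0 without both libraries. The totals were 70, 363, 425, 74 and 0 without the filter, in the 3 groups alone, with DESeq2, with the length correction and without both libraries. Where edgeR gave 0 without both libraries, 762 genes were above and 688 below both at an unadjusted p under 0.05. When 1 library was left out, the totals ranged from 0 to 117, above both from 0 to 68 and below both from 0 to 49. The unfiltered fit adjusts over more genes and a left-out library leaves fewer samples, and other causes were not tested. Scd1, Sftpb, Ros1, Lpcat1, Napsa, Spred2, Klk14 and Med21 kept their call in 11 of 16 settings each, and Meg3 and Rian in 4 of 16.

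Replicate numbers did not pair the NNK and LPS libraries, as the deviations of those with the same number had correlations of -0.06, -0.03 and -0.07. For NNK and Control the correlations were 0.18, 0.03 and 0.29, and for LPS and Control -0.07, 0.03 and -0.10. What the values for NNK and Control reflect was not tested. With the replicate number as a block 7562 genes were called between NNK and LPS, 123 were above and 102 below both.

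With 3 libraries a group, and RNA of the tumours pooled, variation between mice could not be measured. Depth limits low genes: Spag11b, Il17a, Il10 and Saa2 rest on few counts, and members at 0 counts allow no more than the floor of 3 counts. Paralogs such as the H2, Orm and Saa families, overlapping genes and antisense genes can share reads, and the strand setting is not known. Of 1600 list counts under the alternatives, 1465 stayed within 1.5 times of the count in the report.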
